A study of Mus musculus with 9 samples.

Results

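The erythroid genes described here are 10 genes of red cell development: the transcription factors Gata1 and Klf1, the erythropoietin receptor Epor, the enzymes Car1, Car2, Alas2 and Bpgm, and the membrane proteins Ermap, Aqp1 and Slc4a1. They were taken by name from the platform annotation, which gave them 14 of the 34945 probe sets that carry 1 gene, and 10 of the 18193 genes with such a probe set. All 10 were bright enough on 3 or more arrays to be among the 11961 genes tested. Expression was measured on 9 Affymetrix 3-prime arrays of mouse bone marrow cells sorted as lineage-negative, CD117+, SCA-1+ and CD135+, a phenotype of multipotent progenitors. The samples came from E2A-/- mice (3 arrays), Lyl1-/- mice (3 arrays) and wild-type (WT) mice (3 arrays). The labels name the genotype and the sort, and give no treatment, age, strain or sex and no further allele; the making of the alleles and the number of mice behind a sample are not given there.

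Red cell precursors arise from progenitors that switch on GATA1, which binds GATA motifs, and KLF1, which binds CACCC motifs. Together these factors activate genes for haem synthesis, globin, the red cell membrane and carbonic anhydrases, while erythropoietin acts on its receptor to keep the committed cells alive. CD135+ progenitors are known for lymphoid and myeloid potential and for little erythroid output. E2A is an E protein, and Lyl1 and its relative Tal1 bind DNA as partners of E proteins. Tal1 is required for the erythroid lineage. The series title places these arrays in a study of how Tal1 restrains lymphoid specification.

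The values are intensities, on a scale where the median probe set of an array read 77.9 to 79.2 and the lowest 42.1 to 45.1. A constant therefore lies under every value, and the differences of dim genes are understated. WT 1 and WT 3 were more alike than any other pair of arrays (robust spread of the log2 difference 0.0827 at the brightest probe sets, against 0.193 to 0.375 in the other pairs). They were averaged and counted as 1 sample, which leaves n = 2 for WT and n = 3 for either knockout. Lyl1 read 79.2 to 92.0 on the Lyl1-/- arrays, against 1352 to 1443 on the WT arrays. The main probe set of Tcf3, the gene of E2A, read 121.4 to 192.8 on the E2A-/- arrays, against 164.2 to 204.6 on the WT arrays, which does not check the E2A-/- labels, since the deleted part is not given. The sort markers Kit and Flt3 lay above the array median on all 9 arrays (Kit 313.6 to 507.7, Flt3 671.6 to 1302), and of the 5 annotated lineage genes Cd79a and Itgam lay below it on all 9, while Cd3e (103.0 to 120.1), Cd4 (79.6 to 93.3) and Cd8a (82.1 to 96.9) lay above it on all 9. Ly6a, the gene of SCA-1, was not analysed here. E2A-/- 2 stood apart in RNA quality, as did WT 2: the actin 3-prime over 5-prime ratio was 10.1 and 10.6, against 2.85 to 4.23 on the other 7 arrays. E2A-/- 2 was also the E2A-/- array with Xist signal, as Lyl1-/- 1 and 2 were among the Lyl1-/- arrays. Granulocyte transcripts were high on E2A-/- 2 and 3 and not on E2A-/- 1. In this kind of bulk sample, more cells of a type and more RNA per cell cannot be told apart.

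Erythroid genes were higher in E2A-/- progenitors, mostly on 2 of the 3 arrays, and 0 of the 10 passed the test over all genes. The highest were Car1, at 2.89-fold the WT level (a log2 difference of 1.53, SE 0.489), Slc4a1 (1.11, SE 0.561), Ermap (0.83, SE 0.315) and Klf1 (0.72, SE 0.294). In the comparison with WT, 9 of the 10 had a positive difference, with a median of 0.41, against 46.3% of all tested genes above 0 and a median of -0.01. By limma the adjusted p ran from 0.399 to 0.914, while 0.226% of all genes passed the threshold of 0.05 (27 of them). An unadjusted limma p under 0.05 was reached by 5 of the 10, all higher (Klf1, Car1, Ermap, Aqp1 and Bpgm), as by 3.21% of all tested genes in that direction. In 4 of the 10 (Car1, Ermap, Aqp1 and Bpgm) the E2A-/- arrays lay wholly above WT, which held for 9.7% of all tested genes. These 10 genes were listed with earlier results of these arrays known, so their shared direction is a description.

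Klf1, the CACCC-binding activator of globin and other red cell genes, read 257.2, 146.9 and 274.7 on E2A-/- 1, 2 and 3, against 119.6, 147.3 and 119.1 on WT 1, 2 and 3. E2A-/- 1 and 3 lay about 1 log2 unit above the WT mean (0.96 and 1.05), and E2A-/- 2 was level with WT 2, so the groups overlapped. The difference of 0.72 had a limma adjusted p of 0.554, and it was 1.00 without E2A-/- 2 (limma adjusted p = 0.28, with 0.235 to 0.9999 over all alternatives). Gata1, the zinc finger factor that acts at the head of the erythroid programme, read 147.8, 125.8 and 193.3 in E2A-/- cells, against 108.2, 128.7 and 115.1 in WT cells. Again E2A-/- 1 and 3 were above all WT arrays and E2A-/- 2 was among them (log2 difference 0.35, SE 0.187, limma adjusted p = 0.686).

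Epor, through which erythropoietin signals, differed least. It read 96.6, 100.8 and 113.0 in E2A-/- cells, against 96.7, 98.3 and 94.8 in WT cells, little above the median of an array throughout (log2 difference 0.09, SE 0.103, limma adjusted p = 0.908). At this signal the constant under the values understates a difference, and its part in the small difference of Epor was not tested.

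**Figure D1:**
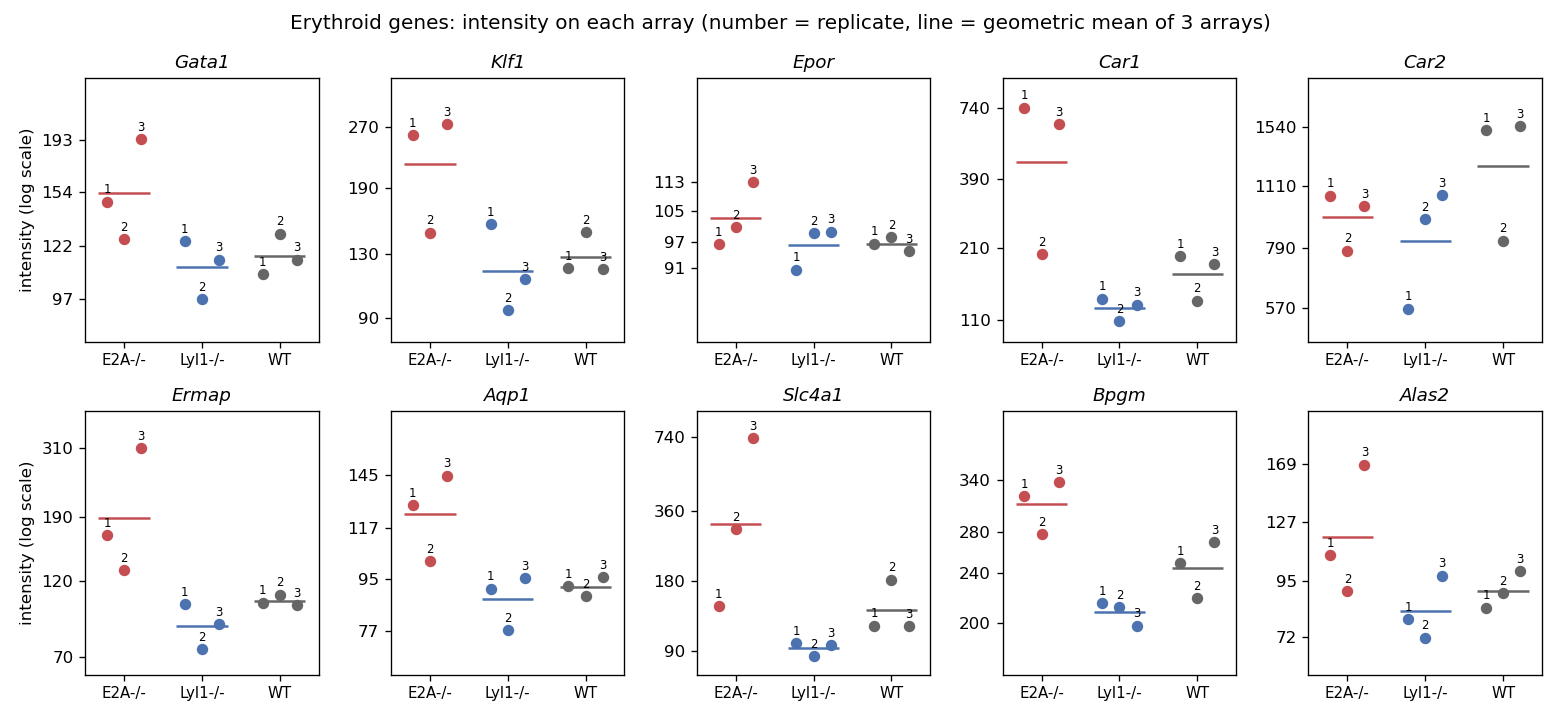
Intensity of the 10 erythroid genes (log axis, own range per panel) on the arrays of E2A-/-, Lyl1-/- and WT progenitors; points are arrays, numbered by replicate, and lines are geometric means of 3 arrays. Car1, Klf1, Ermap, Aqp1, Gata1 and Alas2 are high on E2A-/- 1 and 3, while E2A-/- 2 lies nearer to or among the WT arrays.

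The carbonic anhydrases Car1 and Car2, neighbouring genes whose enzymes interconvert carbon dioxide and bicarbonate, differed in pattern. Car1 read 741.3, 199.1 and 638.4 in E2A-/- cells, against 195.8, 130.9 and 182.0 in WT cells. On the log2 scale it averaged 8.83 ± 1.04 in E2A-/- cells and 7.30 ± 0.37 in WT cells (SD, n = 3 and 2). E2A-/- 1 and 3 were far above all other arrays, and E2A-/- 2 was just above the highest WT array. By limma the adjusted p was 0.4 with all arrays and 0.0129 without E2A-/- 2, where the difference was 2.13 (SE 0.192). Car1 was thus the 1 gene of the 10 that passed in a fit that left out a single array. Without both WT 2 and E2A-/- 2, the arrays of high actin ratio, it stood at 1.87 (SE 0.181, limma adjusted p = 0.0323). Over all alternatives its limma adjusted p ran from 0.0129 to 0.9999. Car2, which many cell types express, was bright in every group. It read 1054, 779.6 and 995.9 in E2A-/- cells, against 1511, 823.1 and 1545 in WT cells, which is -0.26 on the log2 scale (SE 0.319, limma adjusted p = 0.914). WT 2 was the low WT array and E2A-/- 2 the lowest E2A-/- array, both of them the arrays of high actin ratio; the part of RNA quality in this was not tested. Without WT 1 and 3 the difference in Car2 turned to 0.18.

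Alas2, the first enzyme of haem synthesis in red cells, read 108.0, 90.5 and 168.8 in E2A-/- cells, against 83.2, 89.5 and 99.7 in WT cells. The groups overlapped through E2A-/- 2 (log2 difference 0.39, SE 0.244, limma adjusted p = 0.763), and without E2A-/- 3 the difference was 0.13. Bpgm, which makes the 2,3-bisphosphoglycerate that lowers the oxygen affinity of haemoglobin, was the most even of the enzymes across the 3 arrays. Its brightest probe set read 319.9, 277.5 and 336.9 in E2A-/- cells, against 249.1, 218.9 and 269.9 in WT cells, and each E2A-/- array lay above each WT array (log2 difference 0.38, SE 0.121, limma adjusted p = 0.399). The other probe sets of Bpgm were dimmer. In the fit of all probe sets one of them differed by 0.31 (SE 0.188) and the other by 0.08 (SE 0.154), so the size of the difference was not shared by all 3.

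Ermap, an erythroblast membrane protein of the butyrophilin family, read 166.6, 130.0 and 308.4 in E2A-/- cells, against 103.2, 109.1 and 101.4 in WT cells. All 3 E2A-/- arrays were above the WT arrays, E2A-/- 3 by most (log2 difference 0.83, limma adjusted p = 0.524). Aqp1, the water channel of the red cell membrane, read 128.5, 102.2 and 144.9 in E2A-/- cells, against 92.3, 88.6 and 95.8 in WT cells. Its WT arrays were close together and all 3 E2A-/- arrays lay above them (0.44, SE 0.159, limma adjusted p = 0.48).

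Slc4a1, the band 3 anion exchanger of the red cell, had 3 probe sets that disagreed. The brightest read 140.3, 299.9 and 735.7 in E2A-/- cells, against 115.8, 182.4 and 115.2 in WT cells. In contrast to Klf1 and Car1, it was low on E2A-/- 1 and higher on E2A-/- 2 and 3, the arrays with granulocyte transcripts (limma adjusted p = 0.667). Its suffix x marks a probe set that can bind other transcripts too. Of the others, one read 85.6, 90.5 and 120.8 in E2A-/- cells, against 88.6, 86.1 and 85.4 in WT cells, with E2A-/- 3 alone clearly above the rest, and the last lay below the array median on all 9 arrays. In the fit of all probe sets they differed by 0.18 (SE 0.141) and 0.07 (SE 0.077), against 1.11 for the brightest.

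Across the 3 E2A-/- arrays the 10 genes did not move alike. E2A-/- 1 had 7 of them above all 3 WT arrays, as 31.3% of all tested genes were. E2A-/- 2 had 6 (28.8% of all tested genes) and E2A-/- 3 had 9 (28.2%). The median difference of the 10 genes from the WT mean was 0.36, 0.16 and 0.80 on the 3 arrays, while that of all tested genes was 0.01, -0.02 and -0.04. Gata1, Klf1, Car1, Ermap, Aqp1, Bpgm and Alas2 were each above all WT and all Lyl1-/- arrays on E2A-/- 1 and on E2A-/- 3, a pattern that 3.66% of all tested genes showed. The granulocyte and monocyte markers had a median of 0.02 on E2A-/- 1, 3.16 on E2A-/- 2 and 3.55 on E2A-/- 3. Beside these, Klf1 stood at 0.96 on E2A-/- 1 and 1.05 on E2A-/- 3, and Car1 at 2.24 and 2.02. The others were higher on E2A-/- 3 in varying degree, except Car2: Gata1 stood at 0.30 and 0.69, Ermap at 0.66 and 1.55, Alas2 at 0.26 and 0.90, and Slc4a1 at -0.049 and 2.34. The summed intensity of the 12 annotated markers was 1998 to 19515 on the E2A-/- arrays, 2276 to 3833 on the Lyl1-/- arrays and 1959 to 2476 on the WT arrays. Itgam, which defines the myeloid lineage in the sort, was below the array median throughout. The part of these transcripts in the values of Slc4a1 or of the other erythroid genes was not tested.

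**Figure D2:**
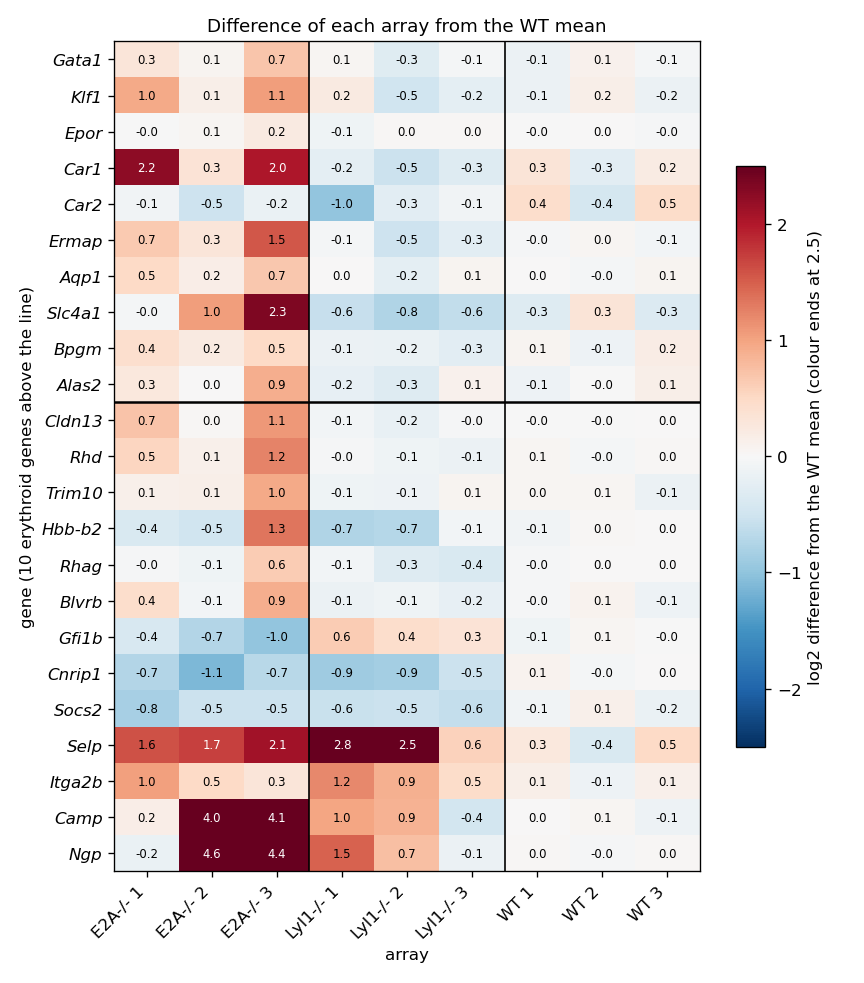
Log2 difference of each array from the WT mean for the 10 erythroid genes (above the line) and for 13 further genes of erythroid, megakaryocyte and granulocyte lists (below it); columns are the arrays of E2A-/-, Lyl1-/- and WT progenitors. Of the 13, Hbb-b2, Rhag and Blvrb were chosen after their values were seen. List members that were not high on E2A-/- 3, such as Hba-a2 and Gypc, are not shown. Car1 stands at 2.24 on E2A-/- 1, 0.34 on E2A-/- 2 and 2.02 on E2A-/- 3, whereas the granule gene Camp stands at 0.17, 3.99 and 4.13.

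The promoters of 7 of the 10 genes were in the RefSeq table, and those of Car1, Car2 and Slc4a1 were not. Shown here are those of the 6 genes with an entry that were above all WT and Lyl1-/- arrays on E2A-/- 1 and 3: Klf1 (chr8:84901732-84901981, + strand), Ermap (chr4:119189996-119190245, - strand), Gata1 (chrX:7967911-7968160, - strand), Aqp1 (chr6:55336049-55336298, + strand), Bpgm (chr6:34476106-34476355, + strand) and Alas2 (chrX:150547167-150547416, + strand), each as the 250 bases before the start, 5′ to 3′, in build GRCm38.p6. Capitals mark the GATA letters (AGATAA or AGATAG or TGATAA or TGATAG) and the KLF1 letters (CCNCNCCC) on either strand.
Klf1: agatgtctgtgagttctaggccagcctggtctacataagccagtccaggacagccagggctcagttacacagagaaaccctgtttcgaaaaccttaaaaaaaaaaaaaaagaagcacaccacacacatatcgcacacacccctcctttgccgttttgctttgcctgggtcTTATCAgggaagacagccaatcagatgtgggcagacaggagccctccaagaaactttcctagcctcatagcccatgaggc
Ermap: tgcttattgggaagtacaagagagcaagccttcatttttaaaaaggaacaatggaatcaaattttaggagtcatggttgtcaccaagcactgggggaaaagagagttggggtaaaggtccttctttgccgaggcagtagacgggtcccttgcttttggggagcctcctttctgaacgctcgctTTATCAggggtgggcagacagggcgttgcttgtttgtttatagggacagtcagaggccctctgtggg
Gata1: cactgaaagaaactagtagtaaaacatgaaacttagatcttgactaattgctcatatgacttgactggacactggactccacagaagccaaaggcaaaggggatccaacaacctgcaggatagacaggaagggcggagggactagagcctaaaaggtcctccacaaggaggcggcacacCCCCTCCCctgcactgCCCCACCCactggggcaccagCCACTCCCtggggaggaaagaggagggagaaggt
Aqp1: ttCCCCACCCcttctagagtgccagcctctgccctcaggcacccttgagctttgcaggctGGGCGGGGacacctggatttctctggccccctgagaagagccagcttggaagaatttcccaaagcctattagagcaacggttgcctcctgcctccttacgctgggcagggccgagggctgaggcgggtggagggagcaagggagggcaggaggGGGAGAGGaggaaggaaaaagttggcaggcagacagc
Bpgm: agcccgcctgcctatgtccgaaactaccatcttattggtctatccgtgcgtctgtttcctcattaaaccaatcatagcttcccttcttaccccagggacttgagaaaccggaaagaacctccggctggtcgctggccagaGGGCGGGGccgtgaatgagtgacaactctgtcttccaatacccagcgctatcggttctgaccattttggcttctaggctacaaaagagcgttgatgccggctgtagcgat
Alas2: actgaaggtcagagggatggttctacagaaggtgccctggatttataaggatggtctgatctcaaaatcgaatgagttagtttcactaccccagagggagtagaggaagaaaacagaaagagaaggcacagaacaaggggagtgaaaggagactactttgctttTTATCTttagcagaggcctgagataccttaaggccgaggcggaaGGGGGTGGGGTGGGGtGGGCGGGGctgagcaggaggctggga
Klf1 and Ermap each held GATA letters once, beginning 80 and 67 bases before the start, and neither held the KLF1 letters CCNCNCCC. Those letters are not the same as a plain CACCC, which was not counted. A plain CACCC stands unmarked in the Klf1 sequence and, on the other strand, in the Ermap sequence. The match in Bpgm holds no CACCC. Gata1 and Aqp1 held the KLF1 letters 3 times each and no GATA letters, and Bpgm held them once. Alas2 held both, GATA letters once and the KLF1 letters 4 times, some of them overlapping. Of the 7 promoters 4 held GATA letters (Klf1, Epor, Ermap and Alas2), against 26.5% of the 32851 promoters of the table, and 5 held KLF1 letters, against 45.9%. The E-box CANNTG, the letters bound by pairs of E proteins and Lyl1 or Tal1, stood in 4 of the 7, against 66.2% of all promoters. Its form CAGCTG stood in 0 of the 7, against 13% of all. The searched motifs may overlap one another, and a match of letters is a description of the sequence and not a bound site.

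In Lyl1-/- progenitors the picture was different. Read by their brightest probe sets, the 10 erythroid genes all had a negative difference from WT, between -0.01 for Epor and -0.65 for Slc4a1, with a median of -0.18. Of all tested genes 51.4% lay below 0, with a median of -0.0048. By limma 0 of the 10 passed (adjusted p from 0.731 to 0.994), as did 0.192% of all genes, and 0 of the 10 had an unadjusted p under 0.05 in either direction (5% of all tested genes were lower at that level and 3.8% higher). In 3 of the 10, Ermap, Slc4a1 and Bpgm, no Lyl1-/- array reached the WT samples, and 14.5% of all tested genes showed this. Since both knockouts were set against the same WT arrays, the comparisons are not independent.

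Klf1 read 154.4, 94.0 and 112.5 in Lyl1-/- cells, around the WT values of 119.6, 147.3 and 119.1 (log2 difference -0.17, SE 0.294). Car1 read 133.3, 108.7 and 126.4 in Lyl1-/- cells, against 195.8, 130.9 and 182.0 in WT cells (-0.36, SE 0.489). Here WT 2 was level with the Lyl1-/- arrays, so that the groups overlapped. Bpgm was the closest to a separation beyond its spread, with 215.0, 211.8 and 197.8 in Lyl1-/- cells, against 249.1, 218.9 and 269.9 in WT cells (-0.20, SE 0.121, limma adjusted p = 0.731). That was its brightest probe set. The others differed by -0.02 (SE 0.188) and 0.15 (SE 0.154) in the fit of all probe sets, so the lower value was not shared. Car2 was lowest on Lyl1-/- 1, at 567.2, with 927.8 and 1059 on Lyl1-/- 2 and 3 (-0.45, SE 0.319, limma adjusted p = 0.788). Gata1 had 124.7, 97.0 and 115.1, Aqp1 91.4, 77.2 and 95.3, and Alas2 78.7, 71.8 and 97.6 in Lyl1-/- cells. These 3 genes were lowest on Lyl1-/- 2, as were Klf1, Car1, Ermap and the brightest Slc4a1 probe set. On that array 8 of the 10 lay below the 3 WT arrays, against 28.8% of all tested genes. On Lyl1-/- 1 and 3 it was 5 of the 10 each (34.4% and 35.8% of all tested genes).

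Ermap read 102.0, 74.2 and 88.5 in Lyl1-/- cells, against 103.2, 109.1 and 101.4 in WT cells, so Lyl1-/- 1 was level with WT 1 and 3 and the other arrays were lower (-0.27, SE 0.315). The brightest Slc4a1 probe set read 97.8, 85.7 and 95.3 in Lyl1-/- cells, below WT throughout and furthest from WT 2, at 182.4. In the fit of all probe sets the dimmer ones of Slc4a1 differed by -0.18 (SE 0.141) and 0.07 (SE 0.077), so its size was not shared. Epor read 90.5, 99.3 and 99.6 in Lyl1-/- cells, around the WT values of 94.8 to 98.3. With Xist signal as a covariate the differences of Gata1, Klf1, Epor, Car1, Ermap, Aqp1 and Alas2 turned above 0 (0.06, 0.08, 0.03, 0.26, 0.0039, 0.14 and 0.18), so their sign was not settled.

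**Figure D3:**
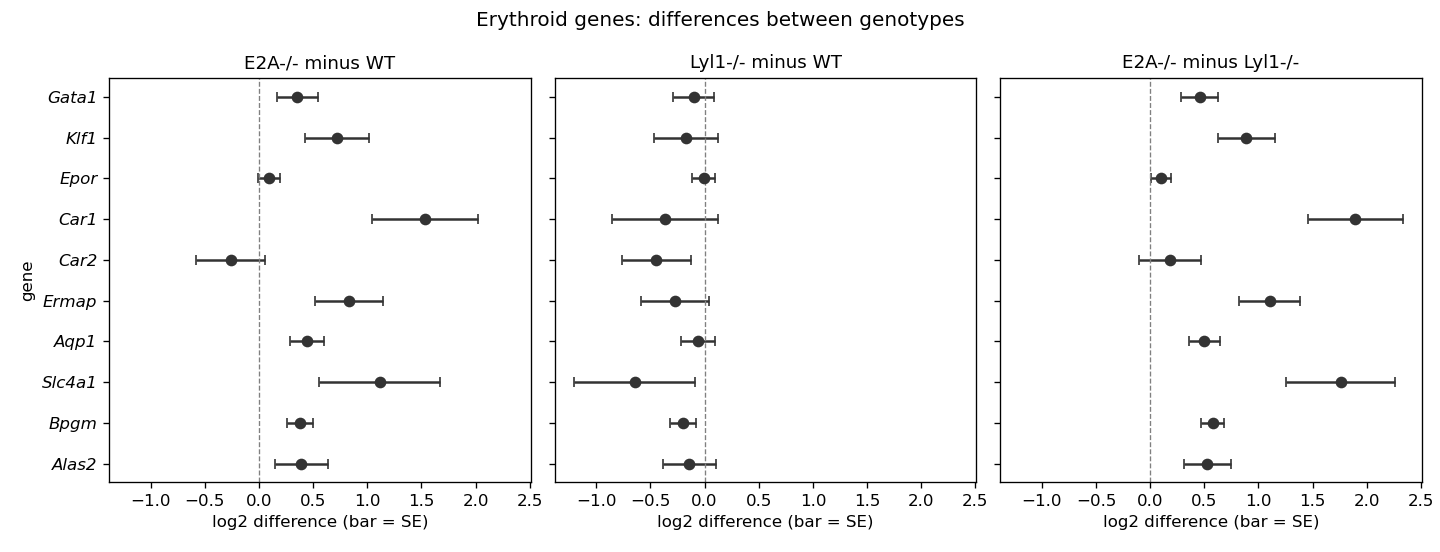
Log2 differences of the 10 erythroid genes for E2A-/- minus WT, Lyl1-/- minus WT and E2A-/- minus Lyl1-/-; points are limma estimates and bars their SE (n = 3 for each knockout, n = 2 for WT). Car1 has the highest difference between the knockouts, at 1.89, and Epor lies near 0 in all 3 panels.

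The knockouts were also set against each other, a comparison that uses no WT array in the means. All 10 erythroid genes were higher in E2A-/- than in Lyl1-/- cells, with a median difference of 0.55 against -0.01 over all tested genes, and 47.4% of all tested genes lay above 0. By limma 0 of the 10 passed, as 0.117% of all genes did. An unadjusted limma p under 0.05 was reached by 8 of the 10 (all but Epor and Car2), as by 3.85% of all tested genes in that direction. In 6 of the 10 (Gata1, Car1, Ermap, Aqp1, Slc4a1 and Bpgm) the arrays of the genotypes did not overlap, as in 5.73% of all tested genes. Bpgm had the smallest p, with 319.9, 277.5 and 336.9 in E2A-/- cells against 215.0, 211.8 and 197.8 in Lyl1-/- cells (0.58, SE 0.108, limma adjusted p = 0.195). These values are of its brightest probe set. In the fit of all probe sets its others differed by 0.34 (SE 0.168) and -0.07 (SE 0.138). The dimmer probe sets of Slc4a1 differed by 0.35 (SE 0.126) and -0.0024 (SE 0.069). Car1 differed most, by 1.89 (SE 0.438, limma adjusted p = 0.29), the fifth highest difference of all tested genes. Without E2A-/- 2 the Car1 difference was 2.49 (SE 0.175) and passed (limma adjusted p = 0.00436, with 0.00203 to 0.748 over all alternatives). It also passed when E2A-/- 1 was the only E2A-/- array (2.60, SE 0.223, limma adjusted p = 0.0356), a fit that takes the spread of that group from the other genotypes.

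Wider erythroid genes were followed in 5 lists, written with earlier results of these data known, of transcription factors, erythropoietin signalling, haem and iron, globin and red cell membrane, and early erythroid progenitor genes. Of their 73 genes with a probe set 63 were tested. In E2A-/- against WT, 35 had a positive difference and 28 a negative one (median 0.05), and 0 passed by limma in either direction. At an unadjusted p under 0.05, 4 were higher and 6 lower, where 3.21% and 5.36% of all tested genes were. In Lyl1-/- against WT, 31 were positive and 32 negative (median -0.01), and again 0 passed, with 4 higher and 4 lower at an unadjusted p under 0.05, where 3.8% and 5% of all tested genes were. In the comparison of groups, the higher values of the 10 genes in E2A-/- cells were therefore not seen across these lists as a whole. Array by array, 22, 15 and 36 of the 63 lay above all 3 WT arrays on E2A-/- 1, 2 and 3. Of all tested genes 31.3%, 28.8% and 28.2% did so. Below all 3 WT arrays lay 20, 27 and 19 of the 63, against 26.5%, 36.4% and 41.4% of all tested genes. On E2A-/- 3 the wider genes thus lay above WT more often than all tested genes.

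Of the 15 further transcription factors 6 had a positive and 9 a negative difference in E2A-/- cells (median -0.21), where 46.3% of all tested genes were positive, and 0 passed against WT. Gfi1b, a repressor needed by red cell and platelet precursors, read 133.3, 105.7 and 89.2 in E2A-/- cells, 272.9, 239.9 and 222.4 in Lyl1-/- cells and 164.2, 183.1 and 174.3 in WT cells. The 3 genotypes did not overlap. Gfi1b was lower in E2A-/- than in Lyl1-/- cells, at -1.18 on the log2 scale (SE 0.151, limma adjusted p = 0.0372), the 1 gene of the 5 lists to pass in any of the 3 comparisons (0.0251% of all tested genes passed as lower in this one). Over all alternatives its limma adjusted p ran from 0.0127 to 0.406. That call was lost without E2A-/- 2, E2A-/- 3, WT 2 or any 1 of the Lyl1-/- arrays. Against WT, Gfi1b stood at -0.71 in E2A-/- cells (limma adjusted p = 0.231) and at 0.47 in Lyl1-/- cells (limma adjusted p = 0.452). Myb, a factor of immature progenitors that favours proliferation, stood at -0.33 in E2A-/- cells and at -0.29 in Lyl1-/- cells, and the cell cycle factor E2f2 at 0.38 and 0.33 in the same order, none past the threshold. The dimmer Myb probe sets did not share its lower value. The brighter of them read 372.7, 684.0 and 298.6 in E2A-/- cells, 469.6, 548.9 and 376.7 in Lyl1-/- cells and 394.3, 394.5 and 353.6 in WT cells. The dimmest read 147.2, 125.4 and 147.3 in E2A-/- cells, 140.8, 191.6 and 201.7 in Lyl1-/- cells and 136.7, 142.8 and 144.2 in WT cells. In the signalling list 6 of 8 genes had a negative difference in E2A-/- cells. Socs2, a feedback inhibitor of STAT5 signalling, read 66.8, 81.2 and 81.8 in E2A-/- cells, 80.1, 81.8 and 78.7 in Lyl1-/- cells and 111.7, 129.0 and 106.4 in WT cells. Both knockouts lay wholly below WT, near the median of an array (-0.64, limma adjusted p = 0.126 in E2A-/- cells; -0.56, limma adjusted p = 0.205 in Lyl1-/- cells). Jak2, the kinase bound to the erythropoietin receptor, stood at -0.31 and -0.32.

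Of the 8 tested early erythroid progenitor genes 5 had a positive and 3 a negative difference in E2A-/- cells (median 0.29), and in Lyl1-/- cells 3 were positive and 5 negative (median -0.05). Eng stood at -0.25 and Tspan33 at -0.0088 in E2A-/- cells. Cldn13, a claudin of mouse erythroid cells, read 143.9, 90.2 and 186.7 in E2A-/- cells, 84.0, 77.8 and 86.9 in Lyl1-/- cells and 87.9, 87.8 and 88.8 in WT cells, again high on E2A-/- 1 and 3 (0.61, SE 0.253, limma adjusted p = 0.563 against WT). Rhd, a Rhesus family protein from the globin and membrane list, read 140.3, 105.6 and 228.0 in E2A-/- cells, 95.2, 89.9 and 87.8 in Lyl1-/- cells and 100.4, 94.3 and 99.2 in WT cells (0.63, SE 0.265, limma adjusted p = 0.57 against WT). Blvrb, a biliverdin reductase abundant in red cells and chosen after its values were seen, read 214.9, 150.1 and 296.2 in E2A-/- cells, 143.4, 146.7 and 136.3 in Lyl1-/- cells and 153.7, 166.8 and 144.6 in WT cells. Cnrip1 had the lowest difference of this list. It read 137.7, 105.8 and 141.7 in E2A-/- cells, 123.7, 127.3 and 158.8 in Lyl1-/- cells and 244.6, 221.9 and 231.1 in WT cells, lower in both knockouts (-0.85, limma adjusted p = 0.118 in E2A-/- cells; -0.76, limma adjusted p = 0.191 in Lyl1-/- cells). Its WT arrays were close together and no knockout array reached them.

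Globin and red cell membrane genes had 11 of 15 positive differences in E2A-/- cells (median 0.12), and 11 of 17 haem and iron genes were positive as well (median 0.14). Of all tested genes 46.3% were. In Lyl1-/- cells 9 of 15 and 12 of 17 were positive (medians 0.01 and 0.06), where 51.4% of all tested genes lay below 0. For E2A-/- against Lyl1-/- the medians were 0.13 and -0.0008, so the haem and iron genes did not set E2A-/- cells apart. Slc25a37, the mitochondrial iron importer of erythroid cells, stood at 0.31 in E2A-/- cells (SE 0.096, limma adjusted p = 0.39) and at 0.22 in Lyl1-/- cells. Tmem14c, a mitochondrial protein of haem synthesis, stood at 0.34 and 0.62. Hbb-b2 and Rhag, chosen after their values were seen, were highest on E2A-/- 3. Others of the globin and membrane list went the other way. Hba-a2 (74.4) and Gypc (122.6) read lowest of all 9 arrays on E2A-/- 3. The median of the list from the WT mean was 0.08, 0.04 and 0.29 on E2A-/- 1, 2 and 3. The brightest Hbb-b2 probe set, of a beta globin gene with near-identical copies, read 92.2, 84.7 and 303.0 in E2A-/- cells, 71.8, 73.4 and 114.4 in Lyl1-/- cells and 113.8, 123.5 and 120.2 in WT cells. Rhag, the Rhesus-associated glycoprotein, read 68.8, 65.5 and 110.1 in E2A-/- cells, against 68.8, 71.1 and 71.3 in WT cells, and was too dim to be tested. Of the alpha globin genes, Hba-a1 lay below the median on all 9 arrays, and Hba-a2 lay above it on 6 and stood at -0.03 in E2A-/- cells and 0.10 in Lyl1-/- cells.

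Markers of neighbouring lineages were read beside the erythroid genes, and their part in the results was not tested. Of 10 tested megakaryocyte markers 5 had a positive and 5 a negative difference in E2A-/- cells (median 0.04), and in Lyl1-/- cells 7 were positive (median 0.03). At an unadjusted limma p under 0.05, 2 were higher in E2A-/- cells and 4 in Lyl1-/- cells. Of all tested genes 3.21% and 3.8% were. The 4 were Itga2b, Selp, Itgb3 and Gp9. The summed intensity of the 13 annotated markers was 1541 to 2217 on the E2A-/- arrays, 1419 to 2171 on the Lyl1-/- arrays and 1290 to 1329 on the WT arrays. Itga2b, the platelet integrin gene, read 278.7, 194.0 and 170.2 in E2A-/- cells, 316.6, 254.6 and 190.3 in Lyl1-/- cells and 151.9, 125.6 and 149.9 in WT cells (0.61 and 0.85, limma adjusted p = 0.565 and 0.358). Selp, P-selectin, had differences of 1.80 in E2A-/- cells and 1.95 in Lyl1-/- cells (limma adjusted p = 0.406 and 0.358). Itgb3 stood at 0.27 in E2A-/- cells and 0.70 in Lyl1-/- cells (limma adjusted p = 0.739 and 0.221). Itga2b, Selp and Itgb3 lay above WT in both knockouts, and none of them passed. Pf4, platelet factor 4, read 195.6, 167.7 and 646.1 in E2A-/- cells, 131.1, 143.8 and 202.5 in Lyl1-/- cells and 197.9, 285.7 and 195.3 in WT cells. Ppbp, another platelet chemokine gene, read 61.5, 65.9 and 118.0 in E2A-/- cells, against 63.3, 71.1 and 62.1 in WT cells, and was too dim to be tested. Both were chosen after their values were seen, and both were highest on E2A-/- 3. Of 4 tested mast cell and basophil markers, 3 had a positive difference in E2A-/- cells, and the protease gene Cpa3 stood at 0.37 (limma adjusted p = 0.667). Their median difference from the WT mean was 0.07, 0.04 and 0.36 on E2A-/- 1, 2 and 3. The summed intensity of the 8 annotated markers was 673.3 to 997.8 on the E2A-/- arrays, 671.1 to 811.6 on the Lyl1-/- arrays and 718.3 to 754.8 on the WT arrays. Mcpt8 and Hdc lay above the array median on all 9 arrays, and Ms4a2 and Mcpt4 below it on all 9. Fcer1a, a chain of the IgE receptor, was also chosen after its values were seen and was too dim to be tested. It read 168.6 on E2A-/- 3 and 53.5 to 67.6 on the other 8 arrays. Pf4, Ppbp and Fcer1a, chosen in this way, were highest on the array where 9 of the 10 erythroid genes were above all WT arrays. Other markers of these lists went the other way. On E2A-/- 3 Itga2b was the lowest of the E2A-/- arrays, and Gp5 (75.5) and Vwf (76.3) read below all WT arrays. Cpa3 was highest on E2A-/- 1.

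Klf1 lies on chromosome 8 near Lyl1, with 13 listed genes between them in the GRCm38.p6 gene table, of which 7 were tested. DNA next to a targeted gene can keep the strain of the cells in which it was targeted, so the neighbours were read beside Klf1. Lyl1 itself fell in Lyl1-/- cells, with a difference of -4.01 (limma adjusted p = 5.55e-05). Klf1 stood at -0.17 there, and its nearest tested neighbours Gcdh and Dnase2a at -0.06 and 0.09. Of the genes between, Gadd45gip1, a mitochondrial ribosome protein, was the lowest, at -0.94 (SE 0.179, limma adjusted p = 0.156), and Nfix and Farsa stood at 0.34 and 0.40. In E2A-/- cells, in which this region was not targeted, Klf1 stood at 0.72 and the 7 tested genes between lay from -0.39 (Calr) to 0.19 (Gcdh). Klf1 was thus the highest of the tested genes from Ier2 to Rtbdn in E2A-/- cells. Lyl1 was the lowest of them there, at -0.53 (SE 0.165, limma adjusted p = 0.399).

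**Figure D4:**
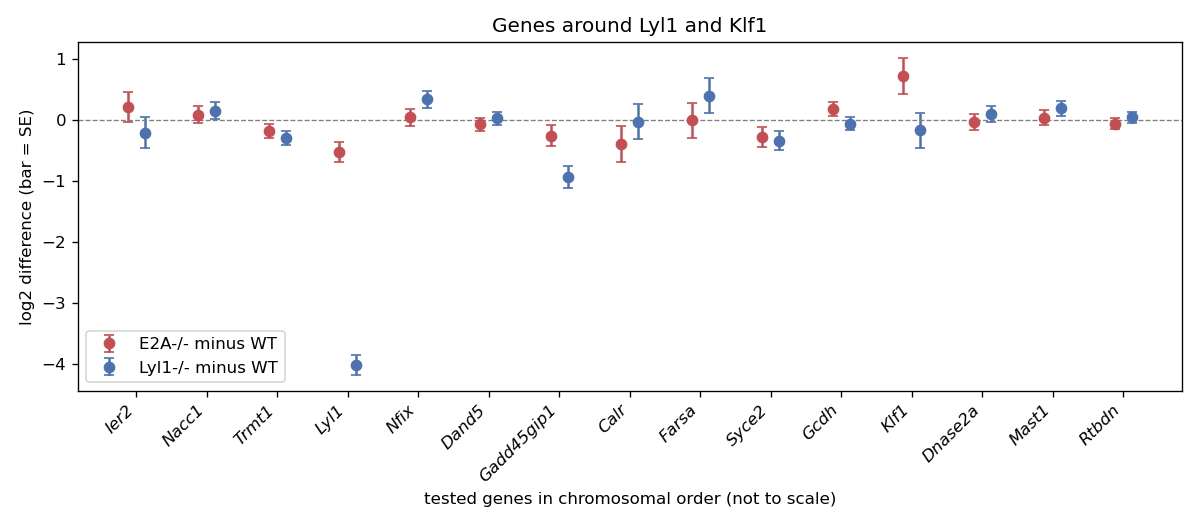
Log2 differences of the tested genes around Lyl1 and Klf1, in chromosomal order and not to scale, for E2A-/- minus WT and Lyl1-/- minus WT; bars are SE. Lyl1 lies at -0.53 in E2A-/- and -4.01 in Lyl1-/- cells, and Klf1 at 0.72 in E2A-/- and -0.17 in Lyl1-/- cells.

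By Pearson's r over the 8 samples, the genes nearest to Gata1 among all tested genes were Ptger1 (0.98), Ermap (0.97) and Gm31087 (0.97), and those nearest to Klf1 were Itm2c (0.96), Gata1 (0.94) and 4933416E14Rik (0.93). For Epor they were Pax1 (0.98), Gpr4 (0.96) and Zfp280b (0.96). These values are descriptions over few samples that share arrays and genotypes. Among the 10 erythroid genes, Ermap, Aqp1, Klf1, Gata1 and Car1 had r between 0.83 and 0.97 with one another. Car2 had r between -0.07 and 0.28 with the rest.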

How the data were processed

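The deposited values are linear intensities, 1 per probe set and array, made by the authors with RMA and oligo, per the submitters' processing notes; versions and settings are not stated there. Log2 was taken with no pseudocount, and the 64 control probe sets of 45101 were left out. Genes were named through GEO's platform annotation. Each gene was read by its brightest probe set (mean log2), and those exceeding the median of 3 or more arrays (11961 genes) were tested. A model of genotype (8 samples, 5 residual degrees of freedom) was fitted with limma 3.58.1 (lmFit, eBayes; R 4.3.3), adjusted by Benjamini-Hochberg over all tested genes at a threshold of 0.05, and tested on simulated data. The labels call the arrays biological replicates; their number limits the precision. The 10 genes and all lists were chosen with earlier results of these data known. Named by rule were the 10 genes, list members past the threshold or else up to 3 of smallest p, and genes around Klf1 and Lyl1. Further genes were named outside this rule, among them Tspan33, Hba-a1 and Hba-a2. Of those outside it, Blvrb, Hbb-b2, Rhag, Pf4, Ppbp and Fcer1a were chosen after their values were seen. Promoters came from RefSeq (GRCm38.p6).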

Additional observations from a re-analysis of the deposited data

How the results depend on the processing

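With 2 or 3 samples a group, and intensities near the array median for most of the 10 genes, small changes could not be measured. Over 24 alternatives the erythroid genes past the threshold stayed at 0 in Lyl1-/- against WT. Leaving out single arrays gave 0 to 1 in E2A-/- against WT and 0 to 1 in E2A-/- against Lyl1-/- (Car1, without E2A-/- 2). Leaving out WT 2 and E2A-/- 2 gave 1 in both, and leaving out E2A-/- 2 and 3 gave 1 in E2A-/- against Lyl1-/-. Of the wider lists, 2 passed in E2A-/- and 1 in Lyl1-/- against WT with 9 arrays as separate samples, and 1 and 1 with a trended, robust eBayes. The Gfi1b call of E2A-/- against Lyl1-/- gave 0 with no filter, with only the groups compared, with Xist signal as covariate, without WT 1 and 3, without E2A-/- 2 and 3, and without WT 2 and E2A-/- 2; leaving out single arrays gave 0 to 1. Counts over all genes ran from 6 to 97 in E2A-/- against WT (27 as reported), 7 to 93 in Lyl1-/- against WT (23) and 3 to 23 in E2A-/- against Lyl1-/- (14). Same-numbered arrays had deviations from their group means that correlated at -0.14 to 0.22, of mixed sign, so the numbers were not taken to pair the samples. With the replicate number as a block on 9 separate arrays, 0 erythroid genes passed in any comparison, 2 wider genes passed in E2A-/- and 1 in Lyl1-/- against WT, and 60, 55 and 13 of all genes passed in the 3 comparisons, against 97, 93 and 23 without the block. Signs turned for uncalled values, and the cause was not tested. In E2A-/- against WT, Epor stood at -0.0065 and Slc4a1 at -0.049 without E2A-/- 2 and 3, and Car2 at 0.18 without WT 1 and 3. In Lyl1-/- against WT, Xist signal as covariate gave Gata1 0.062, Klf1 0.081, Epor 0.032, Car1 0.26, Ermap 0.0039, Aqp1 0.14, Alas2 0.18, Cldn13 0.23 and Rhd 0.14. Without WT 2 and E2A-/- 2, Gata1 stood at 0.0011 and Epor at 0.009798, and Epor stood at 0.015 after repeated quantile normalization and 0.000362 after median centring. Leaving out single arrays gave -0.18 to 0.0011 for Gata1, -0.033 to 0.036 for Epor and -0.12 to 0.032 for Aqp1 in Lyl1-/- against WT, and -0.083 to 0.37 for Car2 in E2A-/- against Lyl1-/-.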
